A study of Mus musculus with 9 samples.

Results

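Glucose enters glycolysis through facilitative transporters, is split into triose phosphates, and leaves the pathway as pyruvate, which is reduced to lactate or passed to mitochondria under the control of the pyruvate dehydrogenase kinases. The pentose phosphate pathway branches off after hexokinase and supplies NADPH, which keeps glutathione reduced, and ribose for nucleotides. The lens has no blood vessels and its fiber cells lose their mitochondria, so it is known for drawing most of its ATP from glycolysis of glucose taken from the aqueous humor.

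The genes described are 36 members of these routes. They were chosen by function and not by a measured value, but with earlier results of these data known. They comprise 2 glucose transporters, 9 genes of upper glycolysis and 3 PFKFB enzymes that set the level of fructose 2,6-bisphosphate. A further 7 belong to lower glycolysis, 4 to lactate formation and export, and 4 are pyruvate dehydrogenase kinases. The pentose phosphate pathway has 3 oxidative and 4 non-oxidative genes. All 36 were found among the 55416 genes in the count files, each with 1 Ensembl identifier. Counts of 35 members were high enough to be tested, among 14903 genes in all, and Pdk4, with at most 1.18 CPM (counts scaled to a common library size) in any library, was not.

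At E16.5, RNA was sequenced from whole lenses of 4 mouse embryos that were Atf4 null and 5 that were wildtype, with 1 library for the pair of lenses of an embryo. The null mice are homozygous for Atf4tm1Tow, in which a neomycin phosphotransferase cassette takes the place of exons 3 and 4 of Atf4, the gene of a bZIP transcription factor that is translated when the integrated stress response is active. They are littermates of the wildtype embryos from crosses between heterozygotes on a mixed C57Bl/6 and 129 background, both sexes were used, and no treatment is named. The methods state that the colony was not typed for the Bfsp2 deletion that 129 strains carry, a lens allele whose part in the results was not tested. Bfsp2 transcripts were counted in all 9 libraries, at 1179 to 3253 CPM. The deletion is present in every tissue of the embryo from conception, so effects that begin within the lens and effects from outside it cannot be told apart.

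Between 7440807 and 8906996 counts per library lay on genes, and their number limits the precision of the weakly expressed members. Atf4 itself, at chr15:80139372-80141745 of GRCm39, read between 119 and 156 CPM in the wildtype and between 0.582 and 10.6 CPM in the null libraries. Crystallins held 13.4% to 14.0% of the counts of wildtype replicates 1 to 4, 8.59% of wildtype replicate 5 and 6.60% to 12.6% of the null libraries. Lim2, a membrane protein of lens fibers, is listed at 0 in all 9 libraries, while the other 11 markers of fiber cells were counted and 4 of them fell. Wildtype replicate 5 stood apart: genes of skeletal muscle took 1.03% of its counts and genes of mesenchyme 1.51%, against at most 0.0183% and 0.0586% in any other library. Counts of members called are therefore given with it and, where they change, without it, as are members whose call, sign or outlying value turned on it. Mesenchyme markers also differed between the genotypes once this library was set aside: without it, 6 of the 7 tested were higher in the null lenses and Pdgfra was lower. Pdgfra read 180 to 227 CPM in wildtype replicates 1 to 4, where the other 6 read at most 37.5 CPM. In the null libraries it read 6.70 to 26.2 CPM. Whether Pdgfra marks mesenchyme in these lenses was not tested. Col1a1 had the smallest adjusted p of the 6 that were higher. It lay between 8.99 and 29.1 CPM in the first 4 wildtype libraries and between 93.7 and 146 CPM in the null ones (log2 2.73, edgeR adjusted p = 6.9e-06). The largest adjusted p of the 6 was that of Postn (log2 2.00, edgeR adjusted p = 0.00711). Markers of the lens epithelium summed to 1102 to 1647 CPM in the wildtype and 777.5 to 1052 CPM in the null libraries, without overlap, with 4 of 8 lower in the null lenses and none at 0. In whole lenses, fewer cells of a type and less RNA per cell cannot be told apart, and the part of a changed cell composition in the results below was not tested.

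Transcripts of glycolysis were lower in the Atf4 null lenses, where at each step from glucose phosphate to pyruvate at least 1 isozyme fell. Of the 35 members tested, 15 were lower at an adjusted p under 0.05 by the quasi-likelihood test of edgeR, 1 was higher and 19 were not called. The share called lower was 42.9%, against 3.67% of all genes tested, and the share called higher was 2.86%, against 2.23%. In 17 members every null library lay below every wildtype library, a pattern that 5.58% of all genes showed, and in 1 member, Eno2, every null library lay above, as in 4.65% of all genes. The median log2 fold change of the members was -0.58, while that of all genes tested was 0.00, and 27 of the 35 had a negative sign. Without wildtype replicate 5, 18 members were lower and 1 was higher, and all 16 members called with it were among them. Scaled by library size alone, 11 were lower and 1 was higher, and of the genes called in all 35.7% were lower, against 62.2% with TMM factors.

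**Figure D1:**
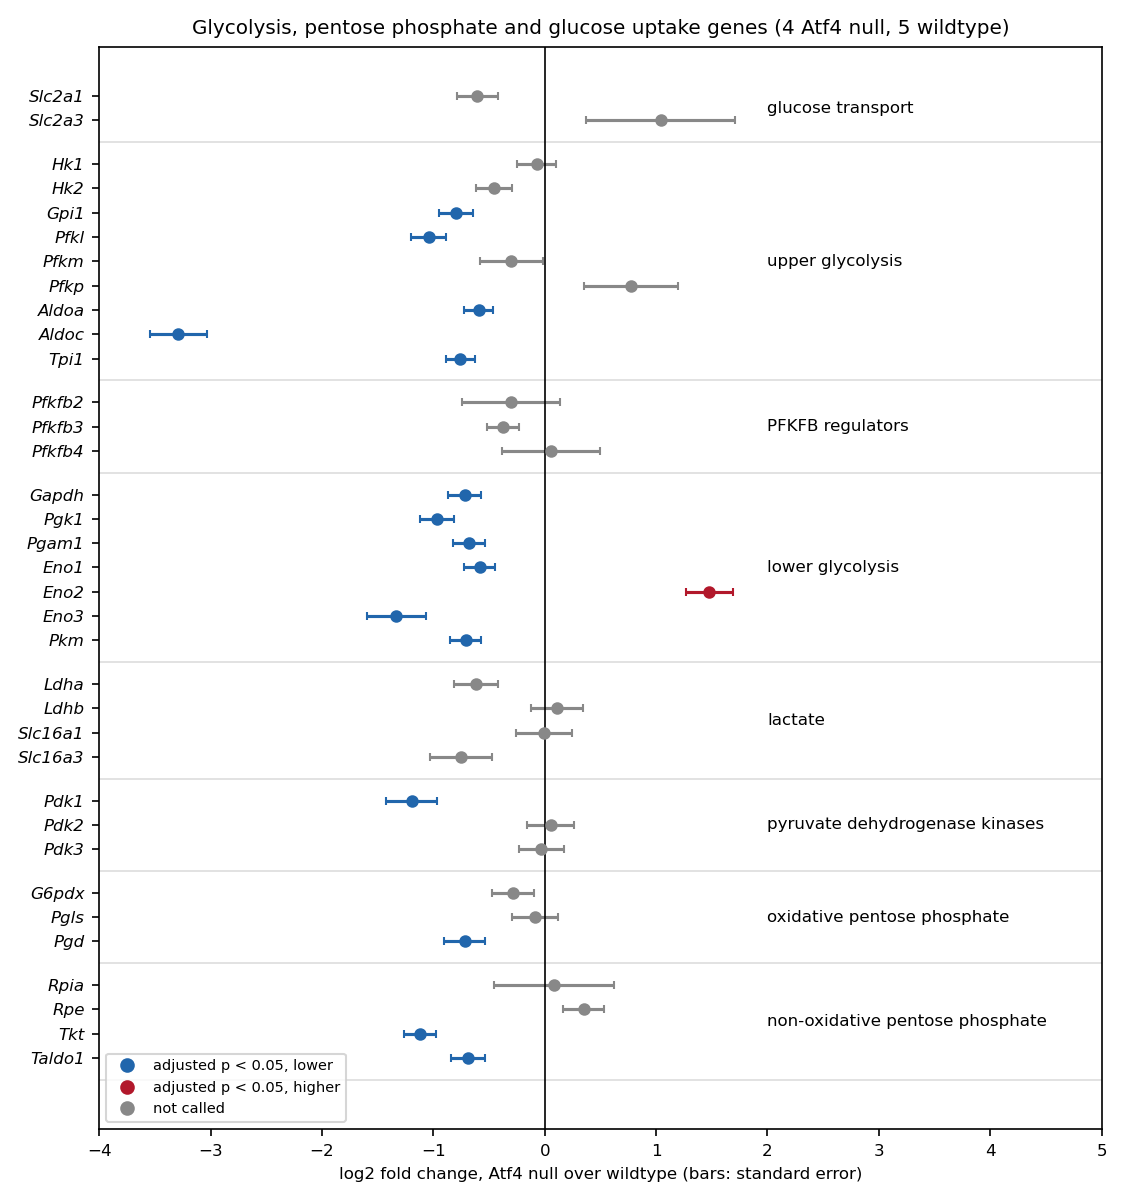
Log2 fold change of each tested member, Atf4 null over wildtype, with its standard error as a bar, grouped by branch in pathway order. Blue points are the 15 members lower and the red point, Eno2, the 1 higher at an adjusted p under 0.05. Aldoc lies farthest to the left, at -3.29.

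Upper and lower glycolysis together held 11 of the 15 members called lower, among 16 tested, and the median log2 fold change was -0.59 in the upper and -0.71 in the lower part. In the pentose phosphate pathway 3 of 7 fell, 1 of 3 oxidative and 2 of 4 non-oxidative genes. Among the kinases of pyruvate dehydrogenase 1 of 3 tested fell. No glucose transporter (0 of 2), no PFKFB enzyme (0 of 3) and no gene of lactate formation or export (0 of 4) passed the test, although 1, 1 and 2 of them had an unadjusted p under 0.05. When wildtype replicate 5 was left out, Slc2a1, Ldha and Hk2 were called as well, which gave 1 of 2 glucose transporters, 1 of 4 genes of lactate formation or export and 12 of 16 genes of upper and lower glycolysis, and the counts of the other branches stayed. Whether the branches differ from one another was not tested.

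The sign of the change was more uniform among members with high counts. All 16 members with a mean of at least 50 CPM over the 9 libraries had a negative fold change and 11 of them were called lower and 5 were not called, Pgls the nearest to 0 at -0.09, while of the 19 below 50 CPM 4 were lower, 1 was higher and 11 had a negative sign. Leaving out wildtype replicate 5 gave 14 of the 16 and again 4 lower and 1 higher of the 19. That level was chosen after the values had been seen. Over all genes tested, 7.51% of those with at least 50 CPM and 2.38% of those below were called lower, and the median log2 fold change was 0.01 in the first class and 0.00 in the second.

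**Figure D2:**
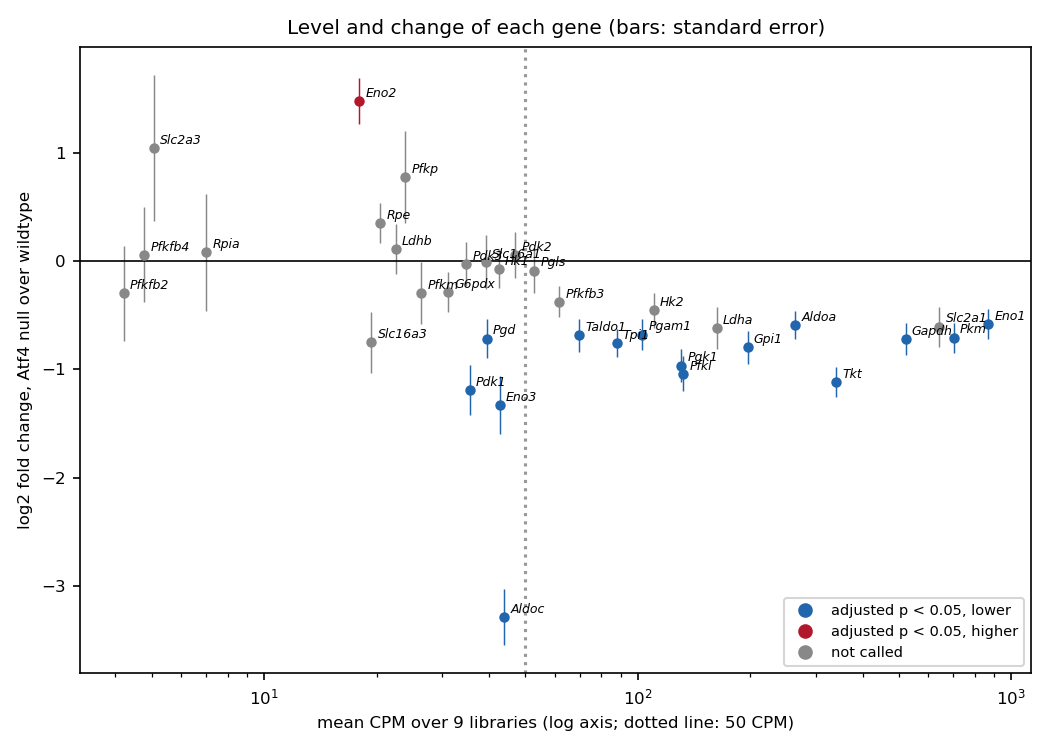
Log2 fold change of each tested member, with its standard error, against its mean CPM over the 9 libraries on a log axis, with a dotted line at 50 CPM. All 16 members to the right of the line lie below 0, and the 1 red point is Eno2.

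Promoters of the members were read from GRCm39 as the 250 bases before the start of the canonical transcript in GENCODE, and searched on both strands. The letters TGATGCAA, a composite element bound by ATF4 together with a C/EBP protein, stood in none of the 36 windows, while 0.892% of the windows of 21627 protein-coding genes and 0.475% of those of 12851 such genes that were tested held them. With 1 mismatch allowed, 1 member's window held them, against 10.9% of the tested genes' windows. The letters ACGTG, the core of elements bound by the hypoxia-inducible factor HIF-1, stood in 11 of 36 members (30.6%) and in 21.0% of the tested protein-coding genes. Of the 15 members called lower 4 held ACGTG, and of the 19 tested and not called 6 did. These counts are a description of the windows and say nothing about binding elsewhere in the genes. Shown are the windows of Pgk1, the member called lower with the most matches to ACGTG, on the forward strand at chrX:105230456-105230705, of Pdk1, which fell and holds no match, on the forward strand at chr2:71703238-71703487, and of Eno2, the 1 member that rose, on the reverse strand at chr6:124746637-124746886. Each is written 5′ to 3′ along its gene, and capitals mark matches to ACGTG or, on the other strand, CACGT.
Pgk1: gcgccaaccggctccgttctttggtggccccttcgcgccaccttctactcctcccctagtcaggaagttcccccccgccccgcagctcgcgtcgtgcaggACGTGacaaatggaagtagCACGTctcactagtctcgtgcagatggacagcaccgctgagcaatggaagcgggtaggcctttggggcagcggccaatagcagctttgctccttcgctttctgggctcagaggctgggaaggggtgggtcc
Pdk1: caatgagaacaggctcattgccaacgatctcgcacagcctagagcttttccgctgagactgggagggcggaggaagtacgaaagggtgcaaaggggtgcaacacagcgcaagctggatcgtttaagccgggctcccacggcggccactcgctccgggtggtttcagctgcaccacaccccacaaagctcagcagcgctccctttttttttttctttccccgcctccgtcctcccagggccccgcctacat
Eno2: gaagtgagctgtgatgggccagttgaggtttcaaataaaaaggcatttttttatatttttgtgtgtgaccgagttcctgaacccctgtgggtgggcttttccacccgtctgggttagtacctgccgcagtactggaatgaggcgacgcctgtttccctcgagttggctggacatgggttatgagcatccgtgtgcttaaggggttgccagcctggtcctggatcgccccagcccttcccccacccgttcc
The matches of Pgk1 begin 150 and 131 bases before the transcript start, and neither the Pdk1 nor the Eno2 window holds one.

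Of the transcripts of both glucose transporters, nearly all came from Slc2a1, which encodes GLUT1, the transporter of the lens epithelium, of red blood cells and of vascular endothelium. It made up 98.4% to 99.9% of the summed level per length (FPKM) of both transporters in the wildtype and 96.8% to 99.7% in the null lenses. Uptake itself was not measured, and 5 other carriers of the family that were tested, Slc2a8 the highest among them, had means of 0.760 to 5.77 FPKM in the wildtype. Slc2a1 read 720, 768, 849, 896 and 557 CPM in wildtype replicates 1 to 5 and 470, 617, 572 and 332 CPM in null replicates 1 to 4. The groups overlapped only through wildtype replicate 5, which lay below null replicates 2 and 3. Its log2 fold change was -0.61 (SE 0.18, edgeR adjusted p = 0.0760, not called), and without that library it was -0.70 (edgeR adjusted p = 0.0113, called). The null library with the least Slc2a1, replicate 4, also had the lowest summed level of vascular endothelium markers, 158 CPM against 253 to 349 CPM in the other null and 289 to 544 CPM in the wildtype libraries. Markers of red blood cells summed to 231 to 740 CPM in the wildtype and 182 to 254 CPM in the null libraries, with overlap. All 6 tested markers of each cell type had a negative log2 fold change, with medians of -0.99 for red blood cells and -0.75 for endothelium, and 1 of each was called lower without overlap: Hba-a1, an alpha-globin gene (log2 -1.14, edgeR adjusted p = 0.0208), and Egfl7 (log2 -0.94, edgeR adjusted p = 0.0439, and 0.0618 without wildtype replicate 5). The part of either cell type in the level of Slc2a1 was not tested. Slc2a3, the neuronal transporter GLUT3, stayed between 0.618 and 14.0 CPM in all libraries with overlap, and its log2 fold change of 1.04 (SE 0.67) was not called.

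Neither gene of hexokinase, the step that traps glucose in the cell, was called. Hk1, the constitutive form, read 36.8 to 49.8 CPM in the wildtype and 29.6 to 50.5 CPM in the null lenses. Hk2, the inducible form, read 89.0 to 159 CPM and 74.6 to 99.6 CPM, and its log2 fold change of -0.46 (SE 0.16, 95% interval -0.80 to -0.11, edgeR adjusted p = 0.123) became -0.55 (edgeR adjusted p = 0.0193) without wildtype replicate 5. The 95% interval of the Hk1 log2 fold change ran from -0.45 to 0.31.

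From the isomerase on, 5 of the 7 genes of upper glycolysis fell. Gpi1, the isomerase between glucose and fructose phosphates (chr7:33900755-33929780), read 229, 239, 254, 272 and 222 CPM in the wildtype and 152, 166, 148 and 92.6 CPM in the null libraries. The null libraries all lay below the wildtype, replicate 4 lowest, and the fall was 1.74-fold (log2 -0.80, SE 0.15, edgeR adjusted p = 0.00794). Tpi1, which interconverts the triose phosphates (chr6:124787549-124791273), read 111, 116, 103.5, 118 and 88.2 CPM against 70.4, 61.1, 69.3 and 53.1 CPM. That is a 1.69-fold fall without overlap (log2 -0.76, SE 0.13, edgeR adjusted p = 0.00385).

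Phosphofructokinase, the committed step, has 3 isozymes, of which the liver type was the main one and the one that fell. Pfkl (chr10:77818084-77845922) read 163, 186, 179, 207 and 124 CPM in the wildtype and 73.6, 103, 85.2 and 71.1 CPM in the null libraries. Its groups did not overlap, and the fall was 2.06-fold (log2 -1.04, SE 0.16, edgeR adjusted p = 0.00186). Pfkm, the muscle type, read 19.4 to 26.2 CPM in wildtype replicates 1 to 4, 51.3 CPM in wildtype replicate 5, which carried the muscle transcripts, and 16.9 to 29.8 CPM in the null lenses. Its log2 fold change was -0.30 with and 0.02 without that library, not called in either. Pfkp, the platelet type, which is also abundant in brain, read 7.53 to 26.2 CPM in the wildtype and 60.7, 29.8, 22.5 and 10.9 CPM in null replicates 1 to 4, with overlap and without a call. Pfkl made up 78.3% ± 9.51 (SD, n = 5) of the family's FPKM in the wildtype and 61.8% ± 10.7 (SD, n = 4) in the null lenses. These shares overlapped because wildtype replicate 5, at 61.5%, lay among the null values, and the log2 ratio of Pfkl to Pfkp had an exact permutation p of 0.024, adjusted over the 17 pairs of isozymes to 0.058.

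Aldolase cleaves the hexose into trioses, and its C form gave the largest fold among the members. Aldoc (ENSMUSG00000017390, chr11:78213619-78218889), an isozyme best known from brain, read 78.4, 53.9, 96.7, 88.9 and 48.0 CPM in the wildtype. In the null libraries it read 7.48, 6.60, 6.03 and 9.90 CPM. The lowest wildtype library was thus several times above the highest null library, and the fall was 9.78-fold (log2 -3.29, SE 0.26, edgeR adjusted p = 2.2e-05). Aldoa (chr7:126393822-126399923), the muscle and general isozyme and the most abundant transcript per length in upper glycolysis, read 287, 325, 326, 364 and 249 CPM against 193, 218, 227 and 186 CPM. It fell 1.51-fold without overlap (log2 -0.59, SE 0.13, edgeR adjusted p = 0.0152). The share of Aldoc in aldolase FPKM was 11.2% ± 2.35 (SD, n = 5) in the wildtype and 1.98% ± 0.615 (SD, n = 4) in the null lenses, without overlap. With the summed length of all annotated exons in place of the canonical transcript, these shares were 21.1% and 4.10%, also without overlap. The log2 ratio of Aldoa to Aldoc rose by 2.63 (exact permutation p = 0.0079, the smallest that this design allows, adjusted over 17 pairs p = 0.027). The ratio within a library does not depend on how that library is scaled.

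The PFKFB enzymes make and remove fructose 2,6-bisphosphate, the strongest activator of phosphofructokinase. Pfkfb3, the form with the highest ratio of kinase to phosphatase activity and the main one here, read 68.4, 71.1, 72.8, 77.8 and 53.9 CPM in the wildtype and 56.4, 46.6, 49.5 and 59.6 CPM in the null libraries. Wildtype replicate 5 lay among the null values, and the log2 fold change of -0.38 (SE 0.14, edgeR adjusted p = 0.15) was not called, nor was it without that library (log2 -0.45, edgeR adjusted p = 0.0523). Pfkfb2 and Pfkfb4 read at most 7.54 CPM in any library, where a change of this size was not detectable.

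All 7 members of lower glycolysis passed the test, 6 lower and 1 higher. Gapdh, glyceraldehyde phosphate dehydrogenase (chr6:125135289-125143518), read 655, 683, 700, 672 and 447 CPM in the wildtype and 319, 416, 404 and 396 CPM in the null libraries. Wildtype replicate 5 was nearer to the null libraries than to the other wildtype ones but remained above them, and the fall was 1.65-fold (log2 -0.72, SE 0.15, edgeR adjusted p = 0.0103). Without that library the log2 fold change was -0.82 (edgeR adjusted p = 0.000223). This gene, often used to scale expression measurements, was therefore not level between the genotypes. Pgk1, phosphoglycerate kinase, the first ATP-forming step (chrX:105230706-105247305), read 163, 151, 169, 220 and 133 CPM against 97.3, 77.3, 92 and 75.4 CPM. It fell 1.95-fold without overlap (log2 -0.97, SE 0.15, edgeR adjusted p = 0.00196).

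Pgam1, phosphoglycerate mutase (chr19:41900341-41907104), read 118, 134, 119, 144 and 103 CPM in the wildtype and 81.7, 84.7, 83.6 and 58.4 CPM in the null libraries. All null libraries were lower, 3 of them close together and replicate 4 beneath them. The fall was 1.60-fold (log2 -0.68, SE 0.14, edgeR adjusted p = 0.0112). The call was lost when libraries were scaled by size alone (edgeR adjusted p = 0.0540). Pgam2, the muscle mutase among the other isozymes and no member, had a wildtype mean of 297 FPKM, against 68.8 FPKM of Pgam1. It was not called (log2 -0.52, SE 0.23, edgeR adjusted p = 0.231) and its groups overlapped. Its values are uncertain for the reason given below. Pkm, pyruvate kinase, the last step (chr9:59563364-59586663), read 905, 826, 922, 972 and 610 CPM against 559, 538, 477 and 499 CPM. It fell 1.63-fold without overlap (log2 -0.71, SE 0.14, edgeR adjusted p = 0.00849), and gene counts do not show which of its splice forms was made.

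The enolases went in opposite directions. Eno1, the general isozyme (chr4:150321073-150337027), was the most abundant member per length of canonical transcript, with a mean of 378.5 FPKM over the 9 libraries. In the wildtype means Gapdh was level with it (444.8 against 444.1 FPKM). Exons of Eno1 sum to 11500 bases, against 2293 in that transcript, so the rank depends on the length used. Eno1 read 981, 1016, 1214, 1132 and 748 CPM in the wildtype and 732, 694, 691 and 602 CPM in the null libraries. The gap between wildtype replicate 5 and null replicate 1 was narrow, and the 1.498-fold fall (log2 -0.58, SE 0.14, edgeR adjusted p = 0.0265) was lost in 8 of 18 alternative settings. Eno3, the muscle isozyme (chr11:70546593-70553340), read 54.1, 56.7, 62.9, 50.9 and 66.9 CPM against 10.7, 33.7, 20.5 and 28.0 CPM. It fell 2.52-fold without overlap (log2 -1.33, SE 0.26, edgeR adjusted p = 0.00895), and without the muscle-bearing wildtype replicate 5 its log2 fold change was -1.27 (edgeR adjusted p = 0.00602).

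Eno2, the neuronal isozyme (ENSMUSG00000004267, chr6:124736247-124746636), was the 1 member that rose. It read 7.83, 9.13, 10.99, 10.6 and 11.4 CPM in the wildtype and 25.3, 29.3, 22.0 and 34.9 CPM in the null libraries. Every null library lay above every wildtype library, and the rise was 2.79-fold (log2 1.48, SE 0.21, edgeR adjusted p = 0.00116). Its share of enolase FPKM went from 0.761% ± 0.195 (SD, n = 5) to 3.15% ± 0.813 (SD, n = 4), while Eno1 made up 90.2% to 95.5% in the null lenses. By summed exon length the Eno2 share was 1.67% and 6.82%, and Eno1 made up 82.8% to 91.2% in the null lenses. The log2 ratio of Eno1 to Eno2 fell by 2.02 and that of Eno2 to Eno3 rose by 2.88 (both exact permutation p = 0.0079, adjusted p = 0.027).

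Markers of retina moved in the same direction as Eno2. Of 8 retinal genes 4 were higher in the null lenses and none was at 0, and their sum was 146 to 235 CPM in the wildtype and 640, 444, 480 and 272 CPM in null replicates 1 to 4, without overlap. Null replicate 4 had the lowest retinal sum and the highest Eno2 of the null libraries. Slc2a3 and Pfkp, also abundant in neurons, were highest in null replicate 1, which had the highest retinal sum. The part of retinal tissue in these values was not tested.

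**Figure D3:**
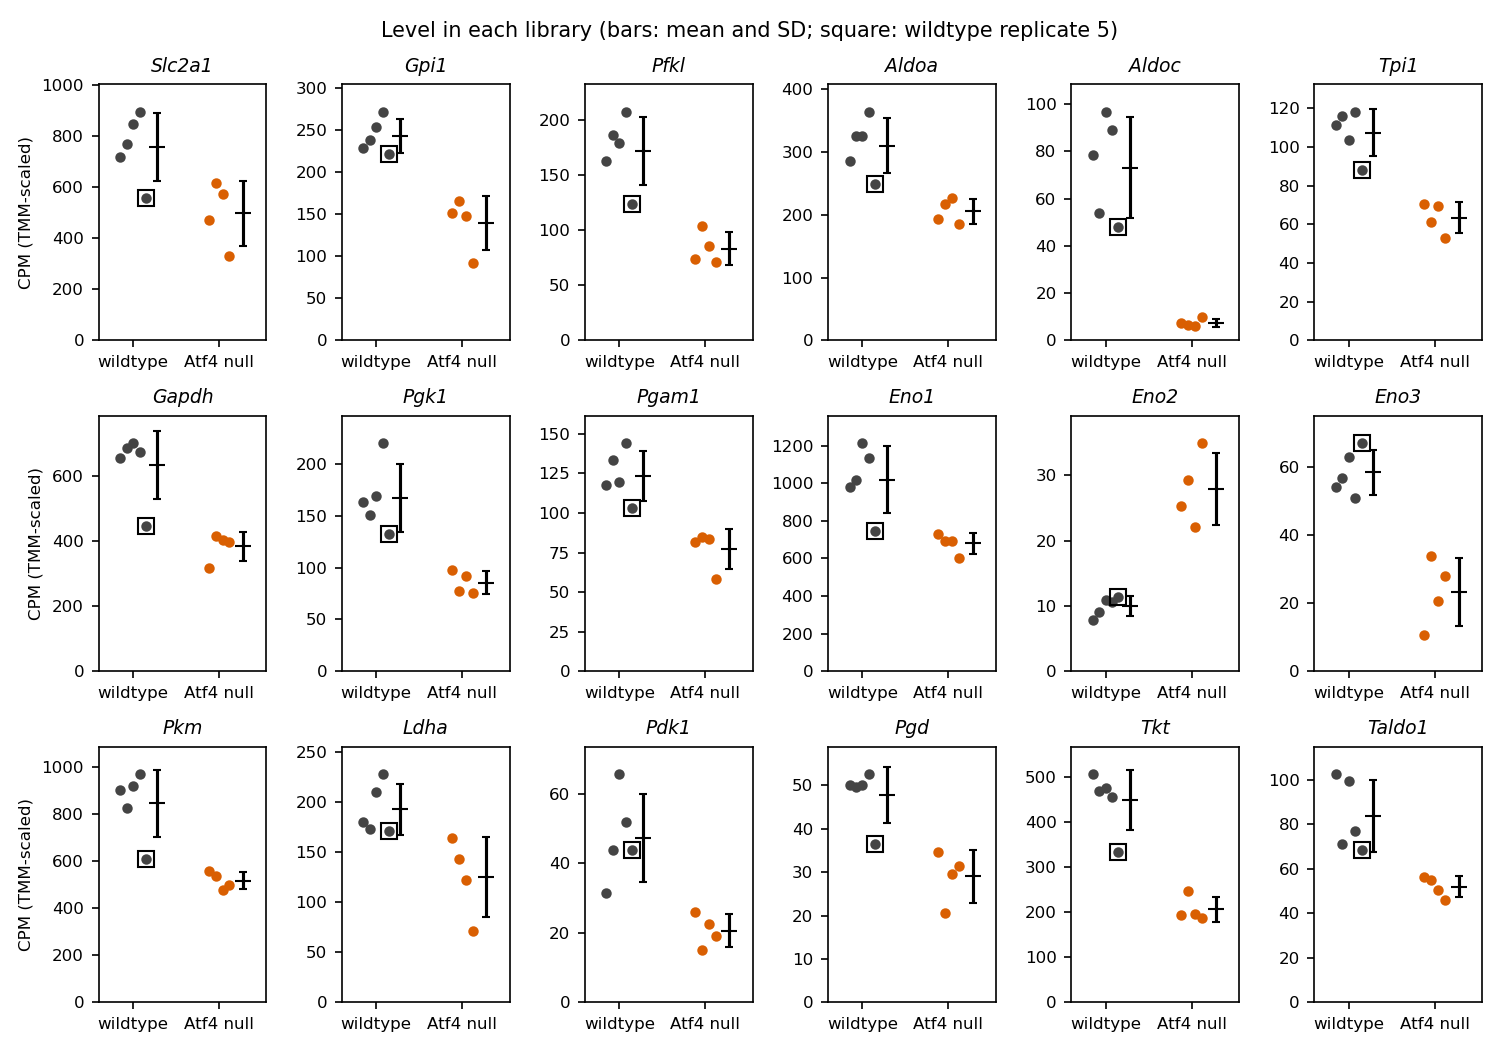
CPM of the 16 members called and of Slc2a1 and Ldha in each library (points), with the mean and SD of each genotype (bars); wildtype replicate 5 is marked by a square. In all panels but that of Slc2a1 the genotypes do not overlap, and Eno2 is the panel in which the null libraries lie above.

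Pyruvate is reduced to lactate by lactate dehydrogenase and the lactate leaves through monocarboxylate transporters, and none of the 4 genes was called. Ldha, the form that favors lactate, read 180, 174, 210, 228 and 171 CPM in the wildtype and 164, 143, 122 and 71.5 CPM in the null libraries. The groups did not overlap but null replicate 1 came close to the wildtype, and the log2 fold change was -0.62 (SE 0.20, edgeR adjusted p = 0.0887). It was called in 4 of 18 alternative settings, with edgeR adjusted p = 0.0424 without wildtype replicate 5. Ldhb, the heart form, read 15.8 to 27.2 CPM and 17.6 to 32.5 CPM. The log2 ratio of Ldha to Ldhb fell by 0.77 (exact permutation p = 0.032, adjusted p = 0.060) with overlap between the groups.

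Slc16a3, the exporter MCT4 typical of glycolytic cells, read 23.9, 21.7, 26.7, 25.6 and 20.5 CPM in the wildtype and 14.4, 15.96, 19.6 and 6.12 CPM in the null lenses. Its groups did not overlap either, but the log2 fold change of -0.75 (SE 0.28, edgeR adjusted p = 0.148) was not called. Slc16a1, the general transporter MCT1, read 25.4 to 59.6 CPM and 32.9 to 51.0 CPM, with a log2 fold change of -0.01 (95% interval -0.55 to 0.53).

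Among the kinases that switch off pyruvate dehydrogenase and so hold pyruvate back from mitochondria, the 3 that were tested parted. Pdk1 (chr2:71703488-71734202), known as a target of HIF-1, read 31.3, 43.9, 65.7, 51.9 and 43.8 CPM in the wildtype and 26.1, 15.0, 22.5 and 19.1 CPM in the null libraries. It fell 2.29-fold without overlap (log2 -1.19, SE 0.23, edgeR adjusted p = 0.00751). Pdk2, the kinase with the highest level per length, read 34.8, 45.3, 58.4, 59.5 and 32.9 CPM against 44.8, 45.8, 62.4 and 38.6 CPM, and its groups overlapped throughout (log2 0.05, 95% interval -0.40 to 0.51, and log2 -0.04 without wildtype replicate 5). Pdk3 read 29.3 to 53.5 CPM and 31.3 to 37.3 CPM (log2 -0.03, 95% interval -0.46 to 0.40).

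The share of Pdk1 in the FPKM of the 4 kinases was 20.7% ± 2.21 (SD, n = 5) in the wildtype and 10.2% ± 2.25 (SD, n = 4) in the null lenses. By summed exon length it was 35.5% and 19.4%, level with the 35.6% of Pdk2 in the wildtype, so the size of these shares and the rank of Pdk2 depend on the length used, while the changes in log2 ratio below do not. Its log2 ratio to Pdk2 fell by 1.25 and to Pdk3 by 1.18, both without overlap (exact permutation p = 0.0079, adjusted p = 0.027). The ratio of Pdk2 to Pdk3 changed by 0.07 (exact permutation p = 0.75). Pdk1 thus moved apart from both other kinases in every null library. Of the 17 pairs of isozymes compared, these pairs, Aldoa with Aldoc, and Eno2 with both other enolases were the 5 without overlap.

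**Figure D4:**
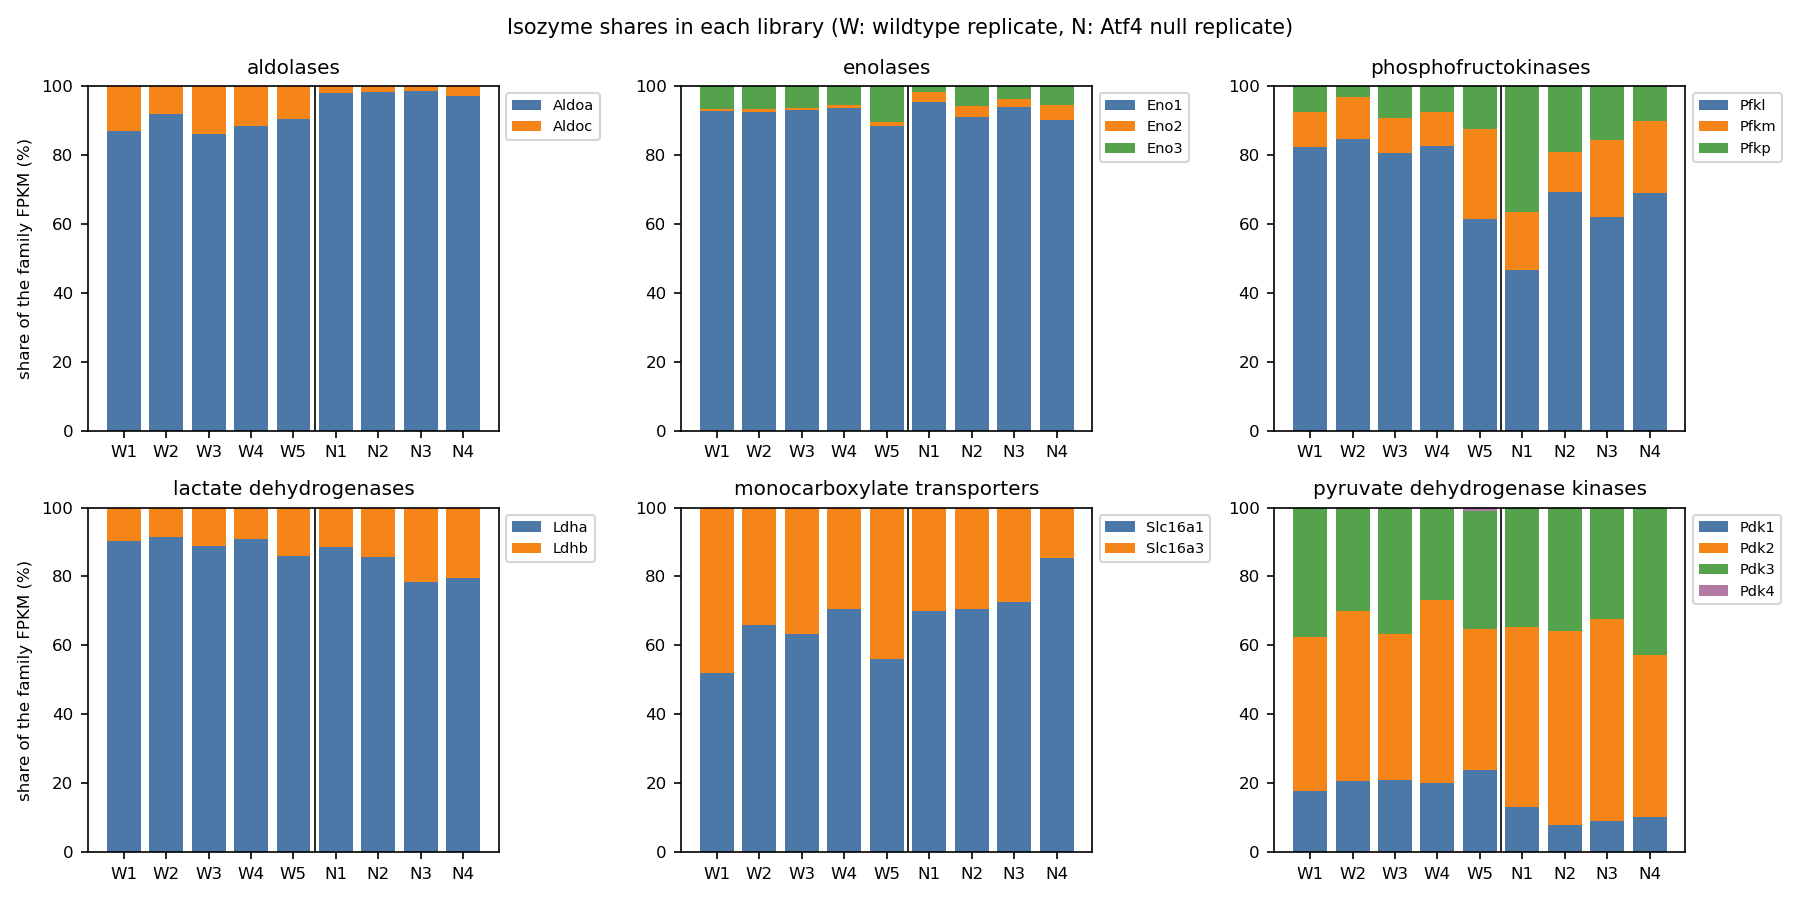
Share of each isozyme in the FPKM of its family (bars, in percent) in wildtype libraries W1 to W5 and Atf4 null libraries N1 to N4. Aldoc, the upper part of the aldolase bars, takes 8.25% to 13.9% in the wildtype and 1.42% to 2.81% in the null libraries, and Pdk1, the lowest part of the kinase bars, 17.7% to 23.9% and 8.03% to 13.3%.

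The oxidative pentose phosphate genes make NADPH, and the last of them fell. Pgd, phosphogluconate dehydrogenase (chr4:149233246-149251228), read 50.1, 49.7, 50.2, 52.7 and 36.4 CPM in the wildtype and 34.7, 20.5, 29.6 and 31.5 CPM in the null libraries. Wildtype replicates 1 to 4 were nearly level and replicate 5 lay just above null replicate 1, and the 1.64-fold fall (log2 -0.72, SE 0.18, edgeR adjusted p = 0.0352) was lost in 7 of 18 alternative settings. Leaving out wildtype replicate 5 gave -0.80 on the log2 scale (edgeR adjusted p = 0.0092). G6pdx, glucose phosphate dehydrogenase, the entry and rate-limiting step, read 29.8 to 39.0 CPM and 19.7 to 35.3 CPM (log2 -0.29, SE 0.19, edgeR adjusted p = 0.455).

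Pgls, the lactonase between them and the gene of this branch with the highest level per length, read 71.6, 49.1, 61.6, 52.8 and 36.3 CPM in the wildtype and 39.8, 66.8, 51.4 and 46.2 CPM in the null lenses. The groups overlapped throughout (log2 -0.09, SE 0.20).

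In the non-oxidative branch, which links pentoses back to glycolysis, the genes of both carbon transfer enzymes fell. Those of the sugar-converting enzymes were not called. Tkt, transketolase (ENSMUSG00000021957, chr14:30270156-30299612), read 506, 469, 474, 456 and 333 CPM in the wildtype and 194, 247, 197 and 187 CPM in the null libraries. It fell 2.17-fold without overlap (log2 -1.12, SE 0.14, edgeR adjusted p = 0.00046). Taldo1, transaldolase (chr7:140972053-140982886), read 103, 71.3, 99.3, 77.2 and 68.5 CPM against 56.4, 55.2, 50.4 and 46.0 CPM. Its 1.61-fold fall without overlap (log2 -0.69, SE 0.15, edgeR adjusted p = 0.0171) was called in 15 of 18 alternative settings. Rpe, the epimerase, read 16.3 to 19.8 CPM and 19.1 to 26.7 CPM (log2 0.35, SE 0.18, edgeR adjusted p = 0.325), and Rpia, the isomerase, 3.80 to 11.04 CPM and 1.17 to 11.2 CPM.

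Summed over all 36 members, the level per length was 2562 FPKM ± 353 (SD, n = 5) in the wildtype and 1624 FPKM ± 135 (SD, n = 4) in the null lenses, a ratio of 0.634. The members took 0.545%, 0.560%, 0.619%, 0.623% and 0.480% of the gene counts of wildtype replicates 1 to 5 and 0.438%, 0.428%, 0.412% and 0.301% of those of null replicates 1 to 4, before any scaling between libraries. Wildtype replicate 5 was the lowest of the wildtype and null replicate 4 the lowest of the null libraries. Among branches the ratio of null to wildtype was lowest in the non-oxidative pentose phosphate genes, 0.536, and highest in the pyruvate dehydrogenase kinases, 0.892. Tkt alone held 138.6 of the 212.5 FPKM of the non-oxidative branch in the wildtype. By median log2 fold change the order differed. That branch had -0.30, with 2 of 4 genes positive, against -0.59 in upper and -0.71 in lower glycolysis. The lower glycolysis genes made up 1432 FPKM ± 219 in the wildtype and 891.5 FPKM ± 35.99 in the null lenses.

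**Figure D5:**
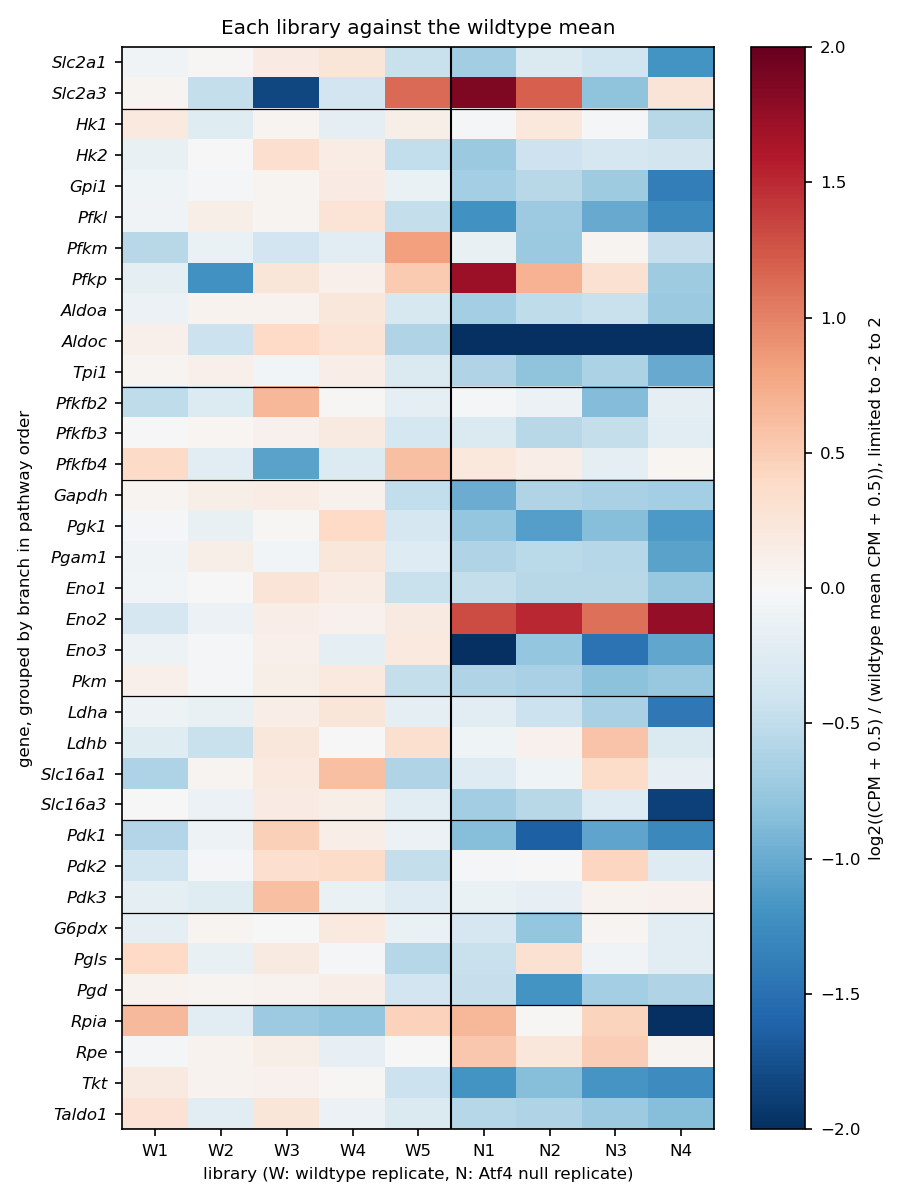
Log2 of the CPM of each tested member in each library over the mean of the 5 wildtype libraries, with 0.5 added to both and colors limited to -2 to 2; genes stand in pathway order and lines divide the branches. The null columns N1 to N4 are blue for most of upper and lower glycolysis, red for Eno2, while W5 is blue for most members of upper and lower glycolysis and red for some others, among them Slc2a3, Pfkm, Pfkp and Pfkfb4.

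Among the 15 members called lower, the lowest library of a genotype was often the same one. Wildtype replicate 5 was the lowest wildtype library for 13 of the 15 and null replicate 4 the lowest null library for 9. The highest positions were more divided, with wildtype replicate 4 highest for 8 and replicate 3 for 4, and null replicate 1 highest for 7 and replicate 2 for 6. Null replicate 4 also had the lowest sum of lens epithelium markers, 777.5 CPM, but the highest share of crystallin counts among the null libraries, 12.6%. The members are measured in the same libraries, so these positions are not independent observations.

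Other genes of the same metabolism, 83 in 8 lists by function of which 51 were tested, gave few calls. By edgeR 0 were called lower, against 3.67% of all genes tested, and 1 was called higher, against 2.23%, while 14 had an unadjusted p under 0.05. DESeq2 called 2 of them lower, Hif1a and Slc2a13, and 2 higher, Txnip and Esrra, and the exact test of edgeR called Slc2a13 lower and Txnip higher. No gene for the entry of pyruvate into mitochondria (0 of 10, median log2 fold change 0.03), of gluconeogenesis (0 of 4), of the polyol and fructose routes (0 of 4), of the other pentose phosphate and ribose genes (0 of 5), of the other glycolysis isozymes (0 of 7) or of the other hexose and monocarboxylate transporters (0 of 8) passed the edgeR test. All 4 tested genes of gluconeogenesis and all 4 of the polyol and fructose routes had a negative log2 fold change, with medians of -0.37 and -0.53. Of 12 retrocopies and pseudogenes named for a member only Eno1b had enough counts to be tested, and it was not called.

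The gene called was among 12 regulators of glycolytic genes. Txnip (ENSMUSG00000038393, chr3:96465267-96469201), whose protein binds thioredoxin and lowers glucose uptake and whose transcription rises with glucose phosphates, read 12.2, 15.6, 15.3, 23.9 and 49.4 CPM in the wildtype. In the null libraries it read 74.7, 92.5, 89.4 and 85.3 CPM. All null libraries lay above the wildtype, of which replicate 5 was the highest, and the rise was 3.66-fold (log2 1.87, SE 0.33, edgeR adjusted p = 0.00476), called in all 18 alternative settings. Without wildtype replicate 5 the log2 fold change was 2.35 (edgeR adjusted p = 1.39e-06). Hif1a, the oxygen-regulated subunit of HIF-1, had a log2 fold change of -0.34 (SE 0.11, edgeR adjusted p = 0.114) with overlap between the groups.

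Counting can blur some of these genes. Exons of Gapdh share 41.6% of their bases with exons of Iffo1, those of Pfkl 39.8% with Cfap410 and those of Slc16a3 40.1% with Csnk1d, in each case on the opposite strand, and those of Aldoa 43.1% with a gene model on the same strand. The strand setting of the counting is not given in the sources used here. Iffo1 and Cfap410 averaged 24.6 and 17.4 CPM, far below Gapdh and Pfkl, whereas Csnk1d averaged 99.3 CPM, above Slc16a3, so the values of Slc16a3 are uncertain. The same limit holds, with less shared exon, for Pdk2 with Samd14 (23.1% of bases, 55.1 CPM), Pfkfb2 with Yod1 (16%, 18.5 CPM), Pfkp with Pitrm1 (11.1%, 118 CPM), G6pdx with Ikbkg (8.13%, 38.6 CPM) and Pfkm with Senp1 (4.36%, 42.3 CPM), whose opposite-strand partners all read above them, and so for the isozyme ratios that contain these genes. Exons of Pgam2 lie wholly within exons of Dbnl on the opposite strand, which averaged 555.7 CPM, and its values are likewise uncertain. Pgam2 was still given 1018 to 2433 counts per library. What this says of the strand setting was not tested.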

How the data were processed

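RNA of whole lenses from 4 Atf4 null and 5 wildtype embryos was sequenced after preparation with a stranded kit for low input. The authors trimmed reads (Trim Galore), removed ribosomal reads, aligned the rest to GRCm39 with HISAT2 and assigned them to genes with HTSeq, per the submitters' processing notes and the methods. What was deposited are raw counts for each gene, not normalized. The 5 summary entries, 44.6% to 47.7% of reads, were left out. Titles of the wildtype samples name another wildtype library than their files, so wildtype replicate numbers are only names. No library repeats another: over the 36 pairs of libraries, chi-square divided by its degrees of freedom was at least 7.70.

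Symbols, positions and canonical transcripts came from GENCODE vM39. Counts were compared with edgeR 4.0.16 in R 4.3.3 (filterByExpr, TMM, glmQLFit, glmQLFTest, no covariate), with Benjamini-Hochberg adjustment over 14903 genes and a threshold of 0.05. CPM are TMM-scaled, and FPKM divide CPM by the length of the canonical transcript. Log2 ratios of isozymes (prior count of 2) were compared by exact two-sided permutation over 126 splits. The procedure was checked on simulated counts. Each embryo gave 1 library, and p-values measure the spread between embryos.

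The members, lists and tests were chosen with earlier results of these data known. Values in every library are given for members called and, in each branch, for the member with the highest mean FPKM. Other genes are named where a fixed list holds them and they were called, or as background. Genes of those lists that were not called by the main test (Hif1a, Slc2a8, Slc2a13, Esrra, Trp53, Eno1b, Pgam2) were chosen after their values were seen. So were genes in the paragraphs on cell composition and overlapping exons, and Slc16a3 for values in every library. Alternatives were DESeq2 1.42.0, edgeR's exactTest, library size alone, DESeq2's size factors, TMM without crystallins, a minimum of 10 counts in every library or no filter, a robust fit, the replicate number as a block and each library left out. Lengths summed over all exons in place of the canonical transcript were added after the values had been seen.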

Additional observations from a re-analysis of the deposited data

Results flagged for a closer look

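For each of the 35 tested members, the highest and lowest library of each genotype were compared with the nearest other one by Dixon's ratio, and 6 of 70 groups had a library far from the rest, where chance gives about 1 in 20. In wildtype replicate 5, Pfkm was highest at 51.3 CPM, Gapdh lowest at 447 CPM and Pgd lowest at 36.4 CPM. In wildtype replicate 3, Pdk3 was highest at 53.5 CPM. In the null lenses, Pgam1 was lowest in replicate 4 at 58.4 CPM and Tkt highest in replicate 2 at 246.8 CPM. Wildtype replicate 5 carries muscle and mesenchyme transcripts, and their part in its values was not tested.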

How the results depend on the processing

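Across 18 alternatives the number of members called lower ran from 11 to 18, against 15, and 1 member, Eno2, was called higher in each. Library size alone gave 11, losing Eno1, Pgam1, Pgd and Taldo1; it moved the median log2 fold change of all genes to 0.12 and the share of calls that were lower from 62.2% to 35.7%, and all genes called higher were 790. With each library left out in turn, 12 to 18 members were lower, all genes called lower were 355 to 719 and all genes called higher 172 to 488. DESeq2 called 17 members lower, and of all genes 835 lower and 562 higher. In the other lists, DESeq2 called 2 genes lower and 2 higher, the exact test of edgeR 1 lower, library size alone 2 higher (Txnip and Trp53), and leaving out each library 0 to 1 lower, Pgam2 without null replicate 4. The median of the glucose transporters, 0.22, became -0.61 with at least 10 counts in every library, where Slc2a1 alone was left, and ran from -0.05 to 0.47 with a library left out. Allowing 1 mismatch, 1 promoter held TGATGCAA.

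No call reversed. Some uncalled members changed sign: with library size alone Hk1 was 0.064, Slc16a1 0.13, Pdk3 0.094 and Pgls 0.045. With a library left out, log2 fold changes ran from -0.19 to 0.054 in Hk1, -0.45 to 0.022 in Pfkm, -0.14 to 0.29 in Pfkfb4, -0.10 to 0.22 in Ldhb, -0.16 to 0.19 in Slc16a1, -0.10 to 0.16 in Pdk2, -0.086 to 0.17 in Pdk3, -0.25 to 0.031 in Pgls and -0.21 to 0.43 in Rpia. The causes were not tested. Replicate numbers did not pair the samples (correlations of same-numbered libraries from -0.13 to 0.01); with them as a block, 17 members were lower, Pdk2 was -0.036, and 12 of 17 isozyme pairs had the same sign within all 4 shared numbers. With a library left out, 5 to 8 pairs did not overlap, 8 without wildtype replicate 5. Members with means below about 10 CPM (Slc2a3, Pfkfb2, Pfkfb4, Rpia) had 5 to 140, 21 to 61, 16 to 69 and 8 to 112 counts per library. The parts of low depth and of spread between embryos in their uncertainty were not tested.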
